A study of Mus musculus with 14 samples.

Results

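Mitochondrial ribosomal protein genes were taken by name from the gene table, as names that begin with Mrpl or Mrps followed by a digit. Mrps36, whose product is a component of the 2-oxoglutarate dehydrogenase complex, and names marked as pseudogenes were left out. Of 83 matching names 6 were left out, and 77 of the 53465 genes in the table remained, 49 of the large subunit (Mrpl) and 28 of the small subunit (Mrps). Subunits are as the names give them, although the products of Mrps18a and Mrps30 are known to sit in the large subunit. All are protein-coding genes of the nucleus.

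The mitochondrial ribosome translates the few proteins encoded in mitochondrial DNA, nearly all of them core subunits of the respiratory chain and ATP synthase. Its ribosomal RNAs come from mitochondrial DNA, while its proteins are made in the cytosol from nuclear genes and imported, so that assembly needs both genomes. Some of its proteins descend from bacterial ribosomal proteins and others are specific to mitochondria. AML cells are known to depend on mitochondrial translation and respiration.

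Messenger RNA was sequenced from KL974, a mouse line labelled as acute myeloid leukaemia (AML) with the genotype Trp53R172H;shMll3;shNf1, that is, the mutant Trp53 allele together with hairpins against Mll3 and Nf1. Every group, controls included, carried this genotype and grew with the mouse cytokines IL3, IL6 and SCF. Cells also carried a lentiviral hairpin that doxycycline switches on together with the blue fluorescent protein BFP. The control hairpin was shRen713, and shOgdh346 and shOgdh2081 target Ogdh, which encodes the E1 subunit of the 2-oxoglutarate dehydrogenase complex of the tricarboxylic acid cycle. The 7 groups of 2 libraries each were untreated control cells at day 0, doxycycline-treated control cells sorted as BFP-negative (uninduced) or BFP-positive (induced) at day 2 and at day 4, and BFP-positive cells with shOgdh346 or with shOgdh2081 at day 4. Uninduced or day 0 cells with an Ogdh hairpin were not analysed here. All libraries came from 1 line, and the labels number the replicates without saying that they were cultured separately. The p-values therefore reflect no more than the spread of these libraries, which could be technical.

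The 14 libraries held 913482 to 10271698 counts, an 11.2-fold range, and the shallow ones included 1 of each Ogdh hairpin (1159021 counts for shOgdh346 replicate 2 and 913482 for shOgdh2081 replicate 1). Ogdh itself measured 247 and 267 CPM (counts per 1000000 counts, after scaling between libraries) in BFP-positive control cells at day 4, 60.8 and 60.8 CPM for shOgdh346, and 51.5 and 52.3 CPM for shOgdh2081 (log2 fold change -2.19 ± 0.09, standard error, adjusted p = 1.63e-30). Of the markers of blood progenitors and myeloid cells, Kit measured 464 to 578 CPM and Ptprc 5.33 to 15.5 CPM. Cebpa was at 0 counts in all 14 libraries, the myeloid marker Mpo and the progenitor marker Cd34 were at 0 in 13 each, and Spi1 measured at most 2.19 CPM. The erythroid factor gene Klf1 measured 179 to 256 CPM. The label AML is therefore used here as the submitters gave it.

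Members were measured in every library. The members took 0.392 to 0.521% of all counts, and 76 of the 77 (48 large, 28 small) passed the filter on low counts, each with at least 5 counts in every library. The exception was Mrpl53, with 0 counts in all 14 libraries, which allows up to 3.28 CPM in the shallowest and 0.292 CPM in the deepest. Of its exon bases, 88.0% are also exon of Gm42688 or Ccdc142os, and the sources used here do not say how reads of shared bases were assigned. In all, 33 members share exon bases with another gene, and the sources used here do not say how the counting treated strand.

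Per length of exon, levels differed widely between members although most proteins of a subunit are present in equal numbers in the finished particle. Mean levels over the 14 libraries ran from 1.32 CPM per kilobase for Mrpl23 to 115 for Mrpl52, an 86.9-fold range, with a median of 30.3 for the large and 16.8 for the small subunit. Above the rest were Mrpl52, a mitochondria-specific protein, at 115 CPM per kilobase, Mrps28, a small subunit protein, at 81.3 and Mrpl28, a bacterial-type protein, at 77.6. At the other end were Mrpl23, a protein of the tunnel exit, Mrps10, a bacterial-type protein of the small subunit, at 4.98, and Mrps34, a mitochondria-specific protein, at 4.99. For Mrps34, 77.8% of the exon bases are shared with Mapk8ip3 or Nme3, so its level is uncertain. Lengths are those deposited with the counts, which for most genes equal the union of all annotated exons. Such a union lowers the value of a gene with long rare transcripts. For Mrpl28 the deposited length was 1274 bases and the union 1380, so its place above Mrpl18 (74.5) depends on the length used.

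In CPM without the length, Mrpl52 measured 134 and 129.2 CPM in BFP-positive control cells at day 4, 127.005 and 95.8 CPM for shOgdh346 and 105 and 102 CPM for shOgdh2081. Its other control values were 143.7 and 134 CPM at day 0, 131 and 147 CPM in BFP-negative and 145 and 119 CPM in BFP-positive cells at day 2, and 140.98 and 133 CPM in BFP-negative cells at day 4. Only shOgdh346 replicate 1 among the Ogdh libraries reached the range of the controls. Mrps28 stood at 67.7 and 62.5 CPM in BFP-positive control cells at day 4, 62.9 and 66.8 CPM for shOgdh346 and 48.2 and 49.3 CPM for shOgdh2081. Its other control values were 60.0 and 68.0 CPM at day 0, 59.9 and 76.5 CPM in BFP-negative and 71.6 and 73.6 CPM in BFP-positive cells at day 2, and 63.2 and 60.8 CPM in BFP-negative cells at day 4. The libraries of shOgdh2081 held its lowest values, and those of shOgdh346 lay among the controls. For Mrpl28 the values were 91.5 and 97.5 CPM in BFP-positive control cells at day 4, 90.3 and 82.2 CPM for shOgdh346 and 82.2 and 90.8 CPM for shOgdh2081. Its remaining control libraries had 114 and 119 CPM at day 0, 104 and 102 CPM in BFP-negative and 108 and 103 CPM in BFP-positive cells at day 2, and 104 and 96.5 CPM in BFP-negative cells at day 4. The Ogdh libraries were the 4 lowest of the 14. Mrps10 measured 39.5 and 39.6 CPM in BFP-positive control cells at day 4, 39.0 and 40.2 CPM for shOgdh346 and 35.1 and 38.0 CPM for shOgdh2081. In the remaining control cells it stood at 46.1 and 44.1 CPM at day 0, 39.8 and 38.0 CPM in BFP-negative and 38.6 and 41.6 CPM in BFP-positive cells at day 2, and 44.5 and 38.8 CPM in BFP-negative cells at day 4. The range of the Ogdh libraries overlapped that of the controls. Mrps34 had 7.52 and 9.33 CPM in BFP-positive control cells at day 4, 9.26 and 14.5 CPM for shOgdh346 and 7.68 and 7.51 CPM for shOgdh2081. Its other values were 9.94 and 12.1 CPM at day 0, 10.7 and 10.5 CPM in BFP-negative and 10.7 and 14.3 CPM in BFP-positive cells at day 2, and 10.6 and 9.70 CPM in BFP-negative cells at day 4. shOgdh346 replicate 2 held its highest value, and the lowest were those of shOgdh2081 and of 1 BFP-positive control library, so the groups overlapped.

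Members share features of position and promoter. A protein-coding gene on the opposite strand starts within 1000 bases of the start of 33 of the 77 members (42.9%). The share was 18.5% of 10078 tested protein-coding genes. One such pair is made of members, Mrpl46 and Mrps11. Promoters from 250 bases before to 50 after the start, from RefSeq (GRCm38.p6), were found for 68 members (74 promoters), and motifs were searched on both strands. The core of ETS factor sites, CCGGAAG, stood in 35.1% of member promoters, 19.5% of those of tested genes and 8.9% of all promoters. The palindromic motif of NRF1, a factor known to act on genes of mitochondrial proteins, stood in 17.6%, 11% and 4.6% when 1 of its central bases was left free. Its strict form, which the former includes, stood in 4.1%, 2.3% and 1.0%. The YY1 motif AAGATGGCG stood in 10.8%, 3.5% and 1.4%, and the E-box CACGTG, which MYC can bind, in 9.5%, 10.4% and 7.2%. Promoters of 1 gene were counted separately even where they overlap, as those of Mrpl2 do. By gene, CACGTG was in 5 of the 68 members with a promoter. For CCAAT the shares were 39.2%, 38.6% and 37.4%, and for the GC box GGGCGG 51.4%, 64.1% and 35.7%. The motif TCAAGGTCA of the ERR receptors was in none of the 74, against 0.3% and 0.4%. A match is a description of the letters and not a site.

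The 120 bases before the RefSeq start are printed for 4 members on which the results below turn: Mrpl42, with the smallest adjusted p of all members in the knockdown comparison, Mrpl20, called with each hairpin, Mrpl52, with the highest level per length, and Mrpl45, whose change was nearest to 0. They lie at chr10:95501950-95502069 (minus strand), chr4:155802758-155802877 (plus strand), chr14:54426789-54426908 (plus strand) and chr11:97315596-97315715 (plus strand) of GRCm38.p6 and are written 5′ to 3′ on the strand of the gene. Capitals mark the E-box in Mrpl20, the ETS core read on the opposite strand in Mrpl52, and 2 matches to the NRF1 motif in Mrpl45. Mrpl42 has none of these in the window. The searched promoters reach past the start, and there Mrpl42 has AAGATGGCG at base 28. Mrpl52 has a further ETS core at base 3 after the start, and Mrpl45 a further NRF1 match at base 16.
Mrpl42: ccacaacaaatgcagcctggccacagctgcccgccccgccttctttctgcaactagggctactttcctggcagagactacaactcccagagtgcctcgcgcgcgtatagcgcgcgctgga
Mrpl20: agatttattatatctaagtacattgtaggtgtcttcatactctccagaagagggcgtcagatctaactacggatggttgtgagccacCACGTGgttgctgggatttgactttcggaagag
Mrpl52: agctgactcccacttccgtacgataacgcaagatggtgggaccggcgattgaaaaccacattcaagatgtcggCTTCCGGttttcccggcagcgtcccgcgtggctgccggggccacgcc
Mrpl45: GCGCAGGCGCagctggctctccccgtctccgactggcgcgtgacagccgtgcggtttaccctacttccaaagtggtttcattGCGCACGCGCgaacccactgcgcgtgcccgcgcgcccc

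In cells with either Ogdh hairpin, the summed mRNA of each ribosomal subunit was lower than in control cells. Summed over the 48 large subunit members, levels were 3356 and 3125 CPM in BFP-positive control cells at day 4, 2887 and 2911 CPM for shOgdh346 and 2768 and 2794 CPM for shOgdh2081. For the 28 small subunit members the sums were 1426 and 1420 CPM in control cells, 1266 and 1272 CPM for shOgdh346 and 1163 and 1221 CPM for shOgdh2081. BFP-negative control cells at day 4 had 3270 and 3228 CPM for the large and 1418 and 1393 CPM for the small subunit. The Ogdh libraries were thus the 4 lowest of the 14 for both subunits. Over both subunits they held 3931 to 4183 CPM, against 4545 to 4782 CPM in the 4 control libraries of day 4 and 4864 to 5400 CPM in the 6 of days 0 and 2. The ratio of large to small subunit sums stayed between 2.28 and 2.33 as a mean of each of the 7 groups, with standard deviations of up to 0.108 between the 2 replicates. In bulk RNA, fewer cells of a type and less RNA per cell cannot be told apart. These sums carry no test, since 2 against 2 libraries cannot give an exact permutation p below 0.333.

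**Figure D1:**
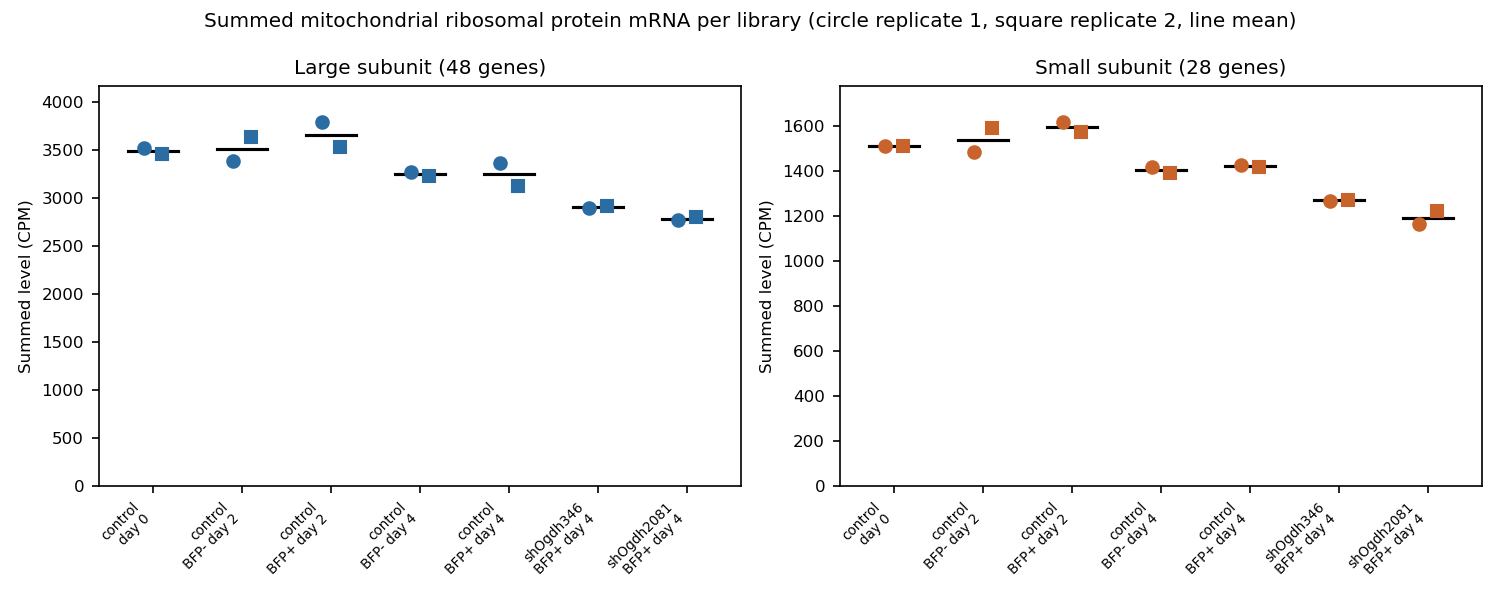
Summed level in CPM of the 48 large (left) and 28 small (right) subunit members in each of the 14 libraries, by group, with replicate 1 as a circle, replicate 2 as a square and the mean as a line. The 4 Ogdh libraries lie below all control libraries in both panels, and BFP-positive control cells at day 2 have the highest means.

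Most members had values slightly below those of control cells, and few passed the test one by one. For both hairpins against BFP-positive control cells, 13 of 76 members fell (17.1%) where 8.36% of all tested genes fell, and none rose where 7.72% of all genes did (edgeR, call at an adjusted p under 0.05). At an unadjusted p under 0.05, 31 members were lower, as were 1638 of the 10791 genes tested. Higher members numbered 0 also at an unadjusted p under 0.05 and by DESeq2. Among the large subunit 9 of 48 fell, and among the small subunit 4 of 28. The median log2 fold change was -0.21 over all members, -0.19 over the large and -0.24 over the small subunit, against 0.00 over all tested genes. Values were below 0 for 70 of 76 members (92.1%) and for 49.9% of all genes. For 36 members (47.4%) all 4 Ogdh libraries lay below both control libraries, against 19% of all genes, and 0 lay above, against 17.1%. They were 21 of the large and 15 of the small subunit. The number called depended on the libraries: it was 1 without BFP-positive control replicate 1, 6 if shOgdh346 replicate 1 was left out and 8 if shOgdh2081 replicate 2 was. DESeq2 called 4, and libraries thinned to equal depth gave 3.

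**Figure D2:**
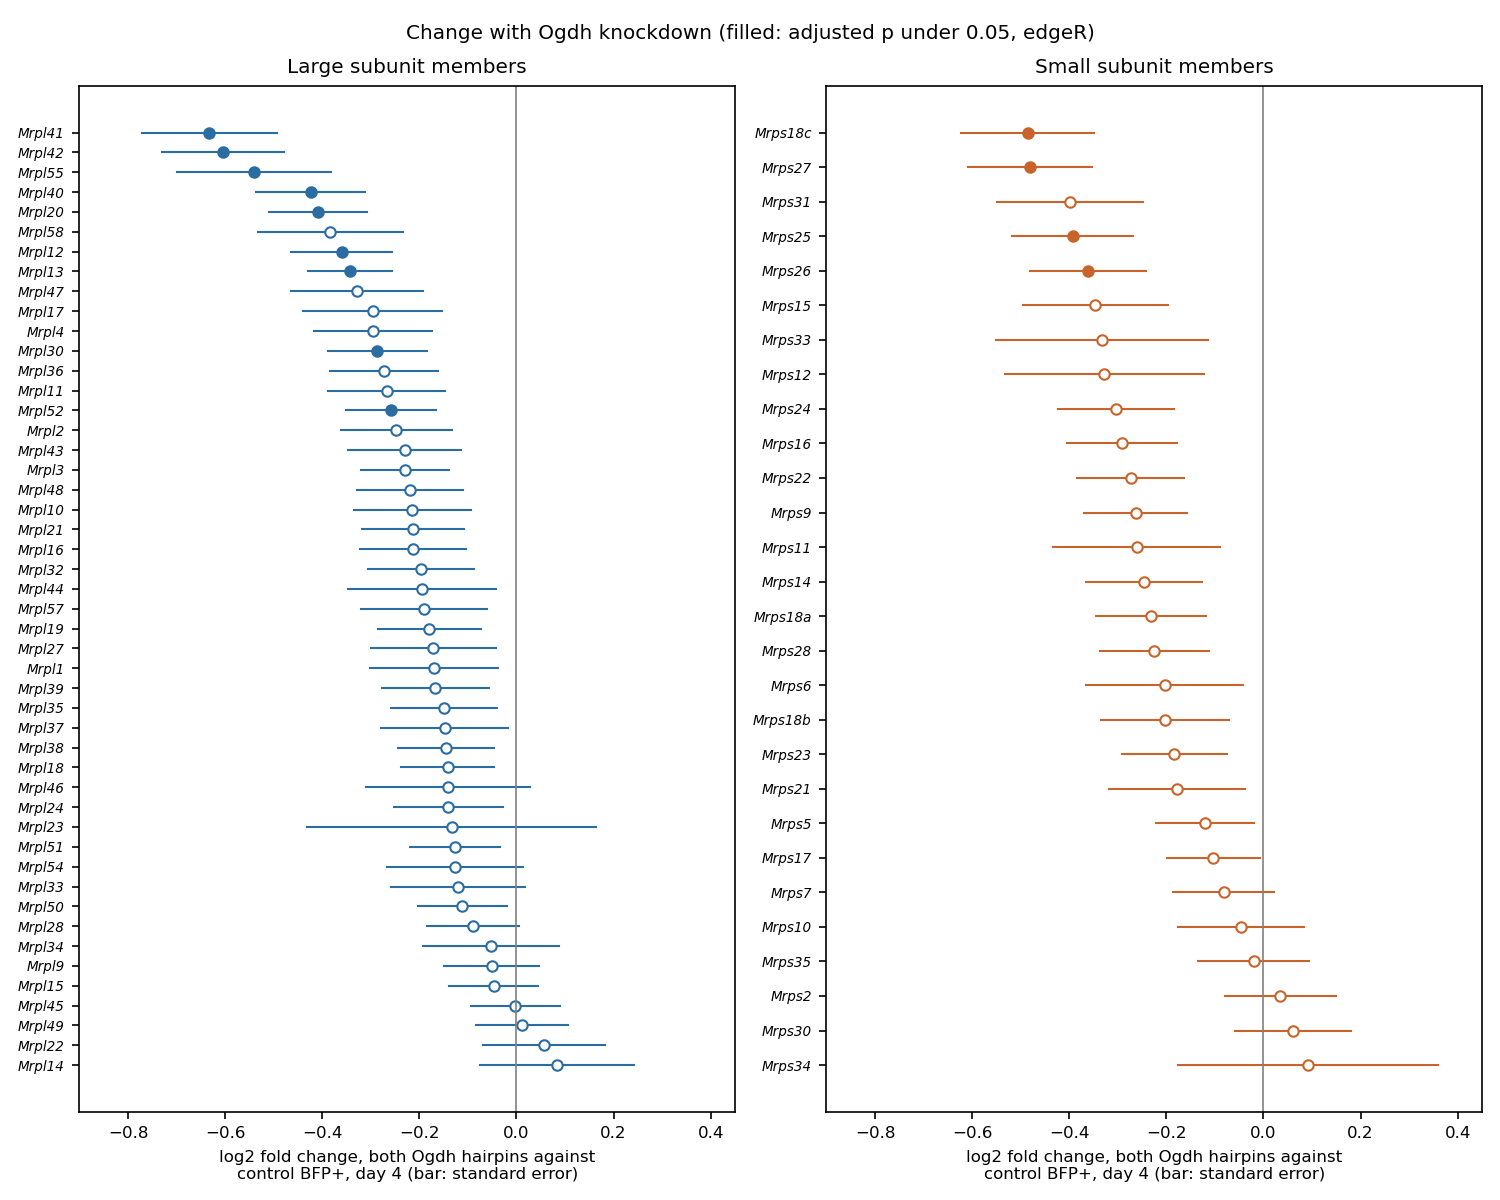
Log2 fold change of each of the 76 tested members for both Ogdh hairpins against BFP-positive control cells at day 4, with its standard error as a bar, large subunit left and small subunit right; filled points passed edgeR at an adjusted p under 0.05. Nearly all points lie to the left of 0, and the 13 filled ones run from -0.63 (Mrpl41) to -0.26 (Mrpl52).

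Some markers of other blood cells moved with the same contrast. The sum of 3 mast cell markers (Cpa3, Ms4a2, Mcpt8) was 55.1 and 62.8 CPM in BFP-positive control cells at day 4, 116 and 132 CPM for shOgdh346 and 132 and 116 CPM for shOgdh2081. Ms4a2 made up most of this sum, since Cpa3 measured at most 8.76 CPM in any library. The erythroid marker Hbb-bt (1.23 ± 0.18) and the mast cell marker Ms4a2 (1.03 ± 0.11) rose, while the erythroid marker Klf1 (-0.06 ± 0.08) and Cpa3 (1.11 ± 0.48, adjusted p = 0.0744) did not pass and Mcpt8 was at 0 in 13 libraries. The 11 markers of neutrophils, macrophages, T and B cells summed to at most 0.880 CPM in any library. Of the stromal markers, Pdgfra was at 0 in all 14 libraries and Col1a1 in 11, and Col1a2 fell (-0.72 ± 0.18). The part of these cells in the member values was not tested. Without the shallow library of each hairpin (chosen after the data were seen), the median log2 fold change of each subunit stayed below 0. The set of members called changed under this setting, with Mrpl36 and Mrps31 added and others lost.

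Among large subunit members, those with the smallest adjusted p were Mrpl42, Mrpl41, Mrpl20, Mrpl13, Mrpl40 and Mrpl12. Mrpl42 (ENSMUSG00000062981, chr10:95480805-95501940, minus strand) encodes a mitochondria-specific protein. It measured 47.6 and 50.4 CPM in BFP-positive control cells at day 4, 34.8 and 31.7 CPM for shOgdh346 and 30.7 and 30.0 CPM for shOgdh2081. The other control libraries had 48.3 and 44.1 CPM at day 0, 57.4 and 61.1 CPM in BFP-negative and 50.6 and 56.6 CPM in BFP-positive cells at day 2, and 42.6 and 44.3 CPM in BFP-negative cells at day 4. The Ogdh libraries were the 4 lowest of 14, with a gap to every control library. The decrease of 34.2% (log2 fold change -0.60 ± 0.13, adjusted p = 0.00035) was called under each of the 16 alternative settings. Mrpl41 (ENSMUSG00000036850, chr2:24974117-24975098, minus strand) encodes another mitochondria-specific protein, also described as a partner of BCL2. Its values were 43.5 and 42.9 CPM in BFP-positive control cells at day 4, 29.5 and 30.8 CPM for shOgdh346 and 31.8 and 24.7 CPM for shOgdh2081. Elsewhere it stood at 38.3 and 44.5 CPM at day 0, 30.0 and 39.6 CPM in BFP-negative and 39.2 and 36.8 CPM in BFP-positive cells at day 2, and 35.8 and 31.997 CPM in BFP-negative cells at day 4. Both day 4 control groups lay above all Ogdh libraries, but a BFP-negative library of day 2 lay among them. It fell by 35.5% (log2 fold change -0.63 ± 0.14, adjusted p = 0.000773), a call lost with libraries thinned and on removal of BFP-positive control replicate 1 or of shOgdh2081 replicate 2.

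Mrpl20 and Mrpl13 encode bacterial-type proteins that bind ribosomal RNA directly. Mrpl20 (ENSMUSG00000029066, chr4:155802878-155809975, plus strand) measured 104 and 84.4 CPM in BFP-positive control cells at day 4, 73.7 and 79.6 CPM for shOgdh346 and 70.2 and 67.8 CPM for shOgdh2081. Its remaining control values were 108 and 102 CPM at day 0, 99.8 and 109 CPM in BFP-negative and 116 and 105 CPM in BFP-positive cells at day 2, and 87.6 and 98.0 CPM in BFP-negative cells at day 4. All control libraries lay above the Ogdh libraries. The decrease was 24.7% (log2 fold change -0.41 ± 0.10, adjusted p = 0.00262), and the call was lost without BFP-positive control replicate 1 and with libraries thinned. Mrpl13 (ENSMUSG00000022370, chr15:55534094-55557748, minus strand) measured 147 and 135.2 CPM in BFP-positive control cells at day 4, 112 and 127.5 CPM for shOgdh346 and 96.5 and 111 CPM for shOgdh2081. In the other control cells it was at 143.01 and 159.7 CPM at day 0, 160.1 and 166 CPM in BFP-negative and 181 and 174 CPM in BFP-positive cells at day 2, and 127.2 and 136 CPM in BFP-negative cells at day 4. The Ogdh libraries lay below the BFP-positive but overlapped the BFP-negative control libraries of day 4, and day 2 was highest. It fell by 21.2% (log2 fold change -0.34 ± 0.09, adjusted p = 0.00356), lost without BFP-positive control replicate 1 and without shOgdh346 replicate 1.

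Mrpl40 encodes a mitochondria-specific protein, and Mrpl12 the protein of the flexible stalk on which translation factors land. Mrpl40 (ENSMUSG00000022706, chr16:18872018-18876862, minus strand) measured 65.8 and 60.6 CPM in BFP-positive control cells at day 4, 47.2 and 53.9 CPM for shOgdh346 and 41.7 and 47.2 CPM for shOgdh2081. Control cells otherwise had 64.6 and 60.5 CPM at day 0, 60.8 and 69.0 CPM in BFP-negative and 78.2 and 76.3 CPM in BFP-positive cells at day 2, and 68.3 and 61.7 CPM in BFP-negative cells at day 4. It was lower in every Ogdh library than in any control library (log2 fold change -0.42 ± 0.11, adjusted p = 0.00588). Mrpl12 (ENSMUSG00000039640, chr11:120484613-120489065, plus strand) stood at 92.4 and 86.3 CPM in BFP-positive control cells at day 4, 68.1 and 70.2 CPM for shOgdh346 and 62.5 and 73.8 CPM for shOgdh2081. Its further control values were 100.4 and 94.9 CPM at day 0, 106 and 101 CPM in BFP-negative and 117 and 87.9 CPM in BFP-positive cells at day 2, and 96.0 and 84.5 CPM in BFP-negative cells at day 4. Here too the Ogdh libraries were the 4 lowest (log2 fold change -0.36 ± 0.10, adjusted p = 0.0115). The calls for both genes were lost without BFP-positive control replicate 1, without shOgdh346 replicate 1, with libraries thinned and by DESeq2. For Mrpl12, 13.1% of the exon bases are shared with Gm16755 on the opposite strand.

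The proteins beside Mrpl12 in the stalk are Mrpl10, which anchors it, and Mrpl11, which forms its base. Mrpl10 measured 53.6 and 50.8 CPM in BFP-positive control cells at day 4, 45.9 and 39.4 CPM for shOgdh346 and 42.8 and 46.8 CPM for shOgdh2081. It had 61.0 and 62.1 CPM at day 0, 55.7 and 51.3 CPM in BFP-negative and 65.4 and 57.2 CPM in BFP-positive cells at day 2, and 60.7 and 49.6 CPM in BFP-negative cells at day 4. Mrpl11 stood at 48.6 and 54.6 CPM in BFP-positive control cells at day 4, 44.0 and 40.2 CPM for shOgdh346 and 38.4 and 42.7 CPM for shOgdh2081. Its other control values were 69.2 and 64.4 CPM at day 0, 55.2 and 63.7 CPM in BFP-negative and 75.1 and 67.5 CPM in BFP-positive cells at day 2, and 51.2 and 54.2 CPM in BFP-negative cells at day 4. For both genes the Ogdh libraries were the 4 lowest of the 14, but neither passed against BFP-positive control cells (log2 fold change -0.21 ± 0.12, adjusted p = 0.236 for Mrpl10 and -0.27 ± 0.12, adjusted p = 0.124 for Mrpl11). The median of the 3 stalk members was -0.27.

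Of the other large subunit members called, Mrpl55, a bacterial-type protein, measured 30.7 and 30.8 CPM in BFP-positive control cells at day 4, 19.0 and 20.5 CPM for shOgdh346 and 20.8 and 23.6 CPM for shOgdh2081. Its other values were 28.4 and 40.2 CPM at day 0, 34.7 and 37.5 CPM in BFP-negative and 36.1 and 28.6 CPM in BFP-positive cells at day 2, and 31.7 and 31.1 CPM in BFP-negative cells at day 4. The Ogdh libraries were again the 4 lowest (log2 fold change -0.54 ± 0.16, adjusted p = 0.0131). Mrpl30, a bacterial-type protein (-0.29 ± 0.10, adjusted p = 0.0434), and Mrpl52 (-0.26 ± 0.09, adjusted p = 0.0459) passed narrowly and lost their calls under 12 of 16 alternative settings. Mrpl55 lost its call under 5 of 16, among them the removal of either BFP-positive control library.

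Around the exit of the peptide tunnel, where new proteins leave toward the inner membrane, no member passed against BFP-positive control cells. Of 8 such members 2 were lower at an unadjusted p under 0.05, and 0 were called by edgeR or DESeq2 (median -0.15). Of all tested genes 8.36% were called lower by edgeR, a share at which 8 genes can readily include none. Mrpl45, which ties the ribosome to the membrane, measured 110.3 and 96.5 CPM in BFP-positive control cells at day 4, 109 and 113 CPM for shOgdh346 and 99.8 and 97.8 CPM for shOgdh2081. It stood at 111 and 109 CPM at day 0, 115 and 118 CPM in BFP-negative and 112 and 116 CPM in BFP-positive cells at day 2, and 101 and 109 CPM in BFP-negative cells at day 4 in the other control groups. The libraries of all groups overlapped (log2 fold change -0.00 ± 0.09, adjusted p = 0.995). Mrpl24 had 69.2 and 75.1 CPM in BFP-positive control cells at day 4, 65.2 and 65.9 CPM for shOgdh346 and 80.1 and 60.3 CPM for shOgdh2081. Its other control values were 55.7 and 54.7 CPM at day 0, 58.2 and 78.8 CPM in BFP-negative and 77.5 and 83.1 CPM in BFP-positive cells at day 2, and 67.0 and 74.2 CPM in BFP-negative cells at day 4. Day 0 was lowest and the Ogdh libraries spanned the day 4 controls (log2 fold change -0.14 ± 0.11, adjusted p = 0.429). Mrpl23, with few counts, measured 6.27 and 7.93 CPM in BFP-positive control cells at day 4, 7.34 and 4.28 CPM for shOgdh346 and 5.48 and 6.01 CPM for shOgdh2081. Elsewhere it was at 5.68 and 6.64 CPM at day 0, 5.99 and 4.90 CPM in BFP-negative and 10.3 and 7.496 CPM in BFP-positive cells at day 2, and 6.24 and 6.01 CPM in BFP-negative cells at day 4. The libraries of shOgdh346 spanned those of the day 4 controls but for 1 (log2 fold change -0.13 ± 0.30, adjusted p = 0.816).

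The 4 small subunit members that fell were Mrps27, Mrps18c, Mrps25 and Mrps26. Mrps27 (ENSMUSG00000041632, chr13:99344786-99415562, plus strand) encodes a pentatricopeptide repeat protein of the kind that binds RNA. It measured 46.4 and 43.8 CPM in BFP-positive control cells at day 4, 29.9 and 30.0 CPM for shOgdh346 and 36.2 and 34.97 CPM for shOgdh2081. In other control cells it had 47.2 and 45.7 CPM at day 0, 51.8 and 47.8 CPM in BFP-negative and 54.7 and 48.4 CPM in BFP-positive cells at day 2, and 42.0 and 39.6 CPM in BFP-negative cells at day 4. All Ogdh libraries lay below all control libraries, with those of shOgdh346 lowest (log2 fold change -0.48 ± 0.13, adjusted p = 0.00577). The call was lost without BFP-positive control replicate 1, without shOgdh2081 replicate 2, with libraries thinned and by DESeq2. Of its exon bases 24.2% are shared with 6430562O15Rik on the opposite strand. Mrps18c (ENSMUSG00000016833, chr5:100798627-100804471, plus strand) encodes 1 of 3 relatives of bacterial S18. Its values were 41.3 and 45.2 CPM in BFP-positive control cells at day 4, 29.7 and 29.1 CPM for shOgdh346 and 24.1 and 33.9 CPM for shOgdh2081. It stood at 33.4 and 25.4 CPM at day 0, 31.3 and 35.9 CPM in BFP-negative and 36.8 and 38.2 CPM in BFP-positive cells at day 2, and 35.8 and 36.6 CPM in BFP-negative cells at day 4. The BFP-positive control libraries of day 4 were the highest of all, and the day 0 libraries lay within the range of the Ogdh libraries (log2 fold change -0.49 ± 0.14, adjusted p = 0.00948). The call for Mrps18c was lost under 5 of 16 alternative settings, among them without either BFP-positive control library, and 23.2% of its exon bases are shared with Gm43511.

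Mrps25 and Mrps26 encode mitochondria-specific proteins. Mrps25 (ENSMUSG00000014551, chr6:92169525-92184033, minus strand) measured 54.5 and 55.5 CPM in BFP-positive control cells at day 4, 42.6 and 44.5 CPM for shOgdh346 and 36.2 and 41.8 CPM for shOgdh2081. Its other values were 58.2 and 41.8 CPM at day 0, 62.1 and 70.4 CPM in BFP-negative and 60.6 and 56.6 CPM in BFP-positive cells at day 2, and 45.5 and 52.8 CPM in BFP-negative cells at day 4. At day 4 the Ogdh libraries lay below all control libraries, but a day 0 library lay among them (log2 fold change -0.39 ± 0.12, adjusted p = 0.0228). Of its exon bases 69.8% are shared with Nr2c2 on the opposite strand, so the source of its reads is uncertain. Mrps26 (ENSMUSG00000037740, chr2:130563742-130568695, plus strand) measured 56.4 and 60.2 CPM in BFP-positive control cells at day 4, 54.7 and 38.5 CPM for shOgdh346 and 35.1 and 41.4 CPM for shOgdh2081. Other control libraries had 65.6 and 76.9 CPM at day 0, 62.1 and 65.8 CPM in BFP-negative and 56.1 and 57.9 CPM in BFP-positive cells at day 2, and 59.4 and 58.3 CPM in BFP-negative cells at day 4. The Ogdh libraries were the 4 lowest, and shOgdh346 replicate 1 lay close to the controls (log2 fold change -0.36 ± 0.12, adjusted p = 0.0297). The calls for both were lost under 7 of 16 alternative settings, among them DESeq2 and the removal of either BFP-positive control library.

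The relatives of Mrps18c and the other small subunit members chosen for their roles did not pass against BFP-positive control cells. Mrps18a measured 58.9 and 56.0 CPM in BFP-positive control cells at day 4, 49.3 and 54.8 CPM for shOgdh346 and 43.9 and 48.7 CPM for shOgdh2081. It had 65.6 and 65.2 CPM at day 0, 54.0 and 54.8 CPM in BFP-negative and 53.7 and 54.5 CPM in BFP-positive cells at day 2, and 61.5 and 58.0 CPM in BFP-negative cells at day 4. Mrps18b stood at 42.6 and 49.4 CPM in BFP-positive control cells at day 4, 38.8 and 45.4 CPM for shOgdh346 and 39.5 and 38.6 CPM for shOgdh2081. Its further control values were 49.0 and 53.5 CPM at day 0, 36.4 and 48.04 CPM in BFP-negative and 44.8 and 48.4 CPM in BFP-positive cells at day 2, and 47.2 and 40.0 CPM in BFP-negative cells at day 4. Fold changes were -0.23 ± 0.11 and -0.20 ± 0.13 on the log2 scale (adjusted p = 0.16 and 0.309), against -0.49 ± 0.14 for Mrps18c. Mrps12, the protein next to the decoding centre, measured 17.2 and 17.7 CPM in BFP-positive control cells at day 4, 14.3 and 13.7 CPM for shOgdh346 and 17.5 and 12.7 CPM for shOgdh2081. Its other control values were 15.6 and 20.7 CPM at day 0, 20.1 and 24.7 CPM in BFP-negative and 28.6 and 24.5 CPM in BFP-positive cells at day 2, and 22.2 and 14.9 CPM in BFP-negative cells at day 4. The Ogdh libraries overlapped the day 4 controls (log2 fold change -0.33 ± 0.20, adjusted p = 0.293).

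Mrps5 and Mrps7 are bacterial-type proteins of the small subunit. Mrps5 measured 82.1 and 77.9 CPM in BFP-positive control cells at day 4, 77.0 and 75.3 CPM for shOgdh346 and 68.0 and 72.1 CPM for shOgdh2081. It was at 84.8 and 92.6 CPM at day 0, 92.1 and 96.8 CPM in BFP-negative and 98.8 and 82.5 CPM in BFP-positive cells at day 2, and 83.2 and 80.2 CPM in BFP-negative cells at day 4. Mrps7 had 82.4 and 84.4 CPM in BFP-positive control cells at day 4, 85.8 and 66.8 CPM for shOgdh346 and 66.9 and 79.6 CPM for shOgdh2081. Its remaining control values were 95.1 and 104 CPM at day 0, 109 and 95.8 CPM in BFP-negative and 100.2 and 112 CPM in BFP-positive cells at day 2, and 89.5 and 87.8 CPM in BFP-negative cells at day 4. The log2 fold changes were -0.12 ± 0.10, adjusted p = 0.452 for Mrps5 and -0.08 ± 0.10, adjusted p = 0.642 for Mrps7. Mrps30, a mitochondria-specific protein, stood at 63.0 and 50.4 CPM in BFP-positive control cells at day 4, 59.2 and 69.3 CPM for shOgdh346 and 51.5 and 60.5 CPM for shOgdh2081. Control cells otherwise gave 57.5 and 58.6 CPM at day 0, 54.4 and 60.9 CPM in BFP-negative and 63.7 and 50.4 CPM in BFP-positive cells at day 2, and 52.1 and 63.2 CPM in BFP-negative cells at day 4. For Mrps5 the Ogdh libraries were the 4 lowest, whereas those of Mrps7 and Mrps30 overlapped the controls. The value of Mrps30 was above 0 (log2 fold change 0.06 ± 0.12, adjusted p = 0.776). The other members above 0 were Mrps34, Mrpl14, Mrpl22, Mrps2 and Mrpl49 (0.01 to 0.09).

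**Figure D3:**
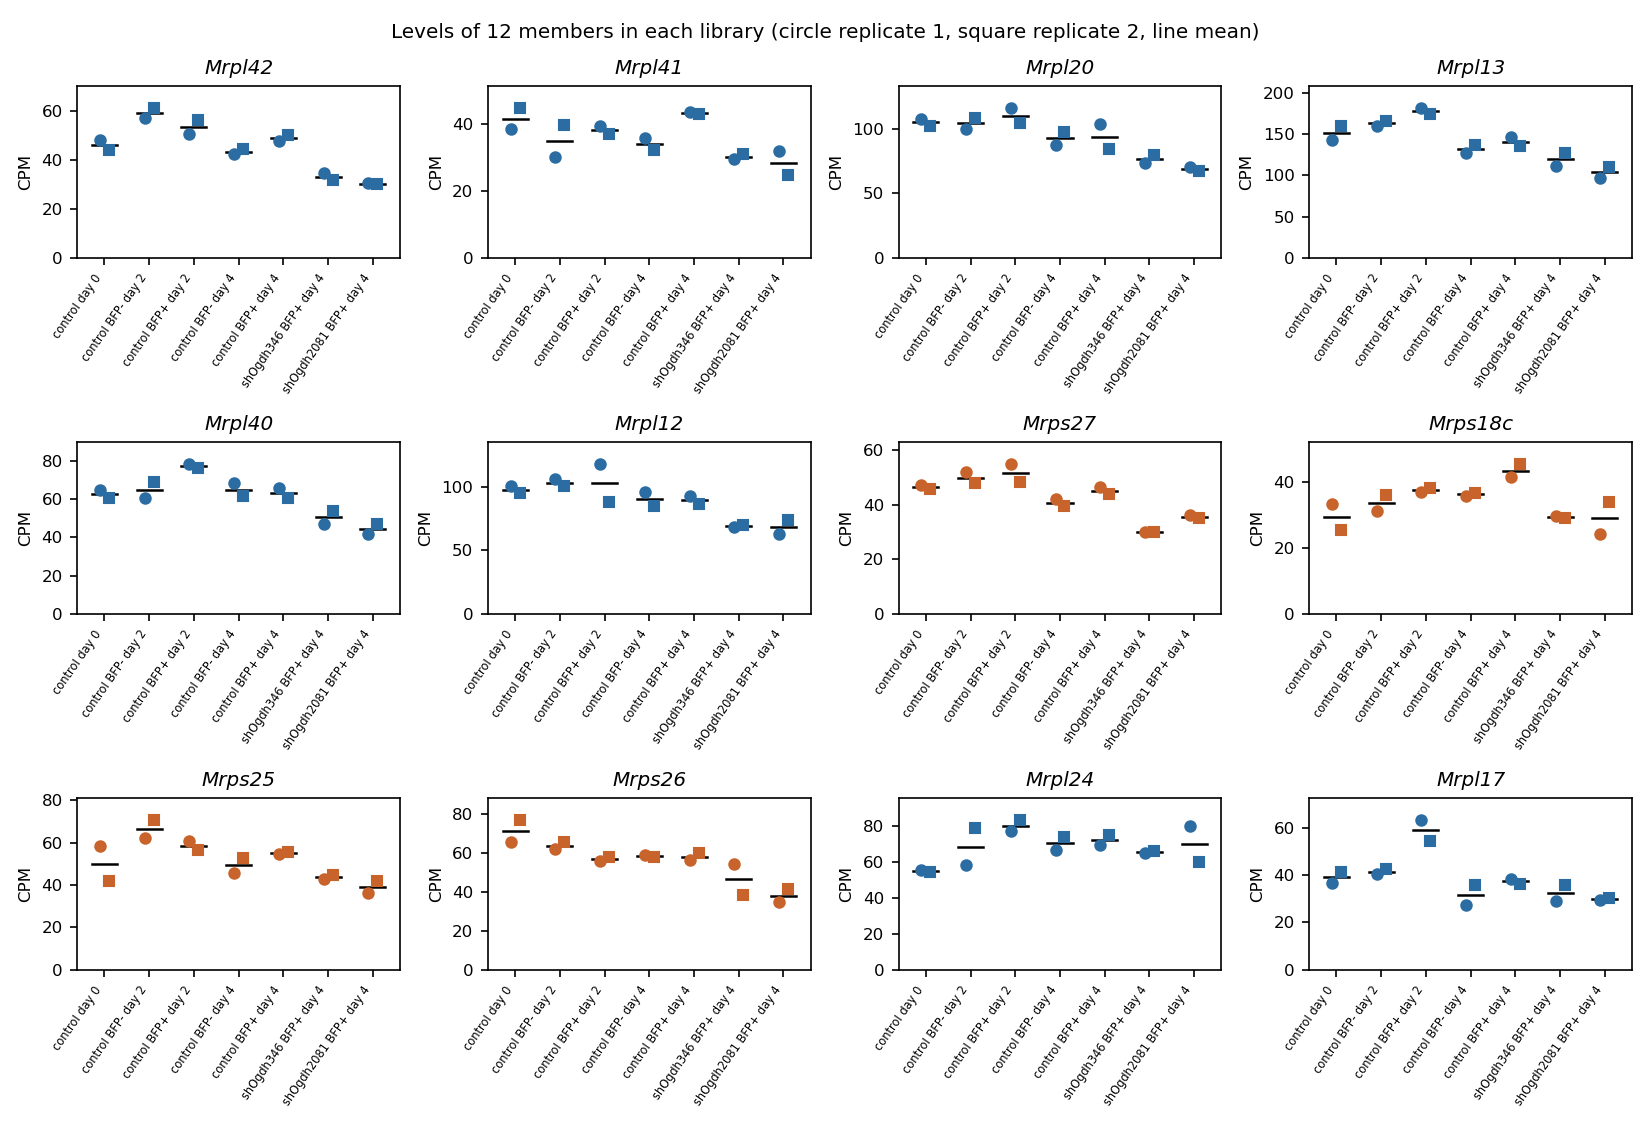
Levels in CPM of 12 members in each library by group, with replicate 1 as a circle, replicate 2 as a square and the mean as a line (blue large, orange small subunit). Mrpl42, Mrpl20, Mrpl40, Mrpl12, Mrps27 and Mrps26 are lower in all 4 Ogdh libraries than in any control library, whereas Mrpl24 and Mrpl17 are shown for their changes in control cells.

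The knockdown values were also grouped by features of the members. Of 46 bacterial-type members 6 fell (median -0.21), and of the other 30 tested members, most of them mitochondria-specific, 7 fell (median -0.20). Against the same BFP-positive control cells, 8.36% of all tested genes fell. The median was -0.21 over the 32 tested members that share exon bases with another gene and -0.20 over the 44 that share none. Split by level into 3 groups of about equal size, members had medians of -0.20, -0.22 and -0.15 from low to high, and split by length -0.22, -0.21 and -0.18 from short to long. Members with and without the ETS core in the promoter had medians of -0.23 and -0.20, and with and without the NRF1 motif -0.19 and -0.22. With and without AAGATGGCG the medians were -0.27 and -0.20, and with and without CACGTG -0.27 and -0.21. Only 8 members had AAGATGGCG and 5 had CACGTG, so these medians rest on few genes. No difference between groups of members was tested. Members with a protein-coding gene that starts opposite had a median of -0.20 and those without one -0.22. Of these neighbours, Ptcd2 beside Mrps27 (-0.34 ± 0.12, adjusted p = 0.0355) and Psma2 beside Mrpl32 (-0.27 ± 0.08, adjusted p = 0.00948) fell, and Pnpla7 beside Mrpl41 rose (0.46 ± 0.16, adjusted p = 0.0375). For Mrpl49 (0.01 ± 0.10) and its neighbour Fau (0.18 ± 0.08), neither passed.

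Taken one at a time, both hairpins gave lower members. These 2 comparisons share their control libraries. With shOgdh346, 8 of 76 members fell (10.5%) where 5.6% of all genes fell, and with shOgdh2081 12 fell (15.8%) where 5.53% of all genes did. Higher members numbered 0 in each, also at an unadjusted p under 0.05 and by DESeq2, where 5.58% and 6.02% of all genes rose. Medians were -0.18 and -0.22. Mrpl42 (-0.52 ± 0.14 and -0.69 ± 0.15), Mrpl41 (-0.54 ± 0.16 and -0.73 ± 0.17), Mrpl20 (-0.34 ± 0.11 and -0.48 ± 0.12) and Mrpl40 (-0.38 ± 0.13 and -0.47 ± 0.14) fell with shOgdh346 and with shOgdh2081. The smallest adjusted p with shOgdh346 was that of Mrps27 (log2 fold change -0.60 ± 0.15, adjusted p = 0.00412), which with shOgdh2081 had -0.36 ± 0.15, adjusted p = 0.108. With shOgdh346 Mrpl55, Mrps18c and Mrpl12 also fell, and with shOgdh2081 Mrpl13, Mrps26, Mrpl4, Mrpl52, Mrps24, Mrpl30, Mrps28 and Mrps25.

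The counts for each hairpin rested on single libraries. For shOgdh346 the number called was 0 without BFP-positive control replicate 1, 2 without replicate 2 and 0 without shOgdh346 replicate 1, and DESeq2 called 0. For shOgdh2081 it was 1 without BFP-positive control replicate 1, 6 without shOgdh2081 replicate 1 and 1 without shOgdh2081 replicate 2, and DESeq2 called 3. Without the shallow library of each hairpin, 5 members were called for shOgdh346 and 5 for shOgdh2081. Between the hairpins 0 of 76 members passed by edgeR or by DESeq2, against 0.0834% of all genes by edgeR. At an unadjusted p under 0.05 there were 4, all higher with shOgdh346, namely Mrps28 (0.38 ± 0.13), Mrps24 (0.31 ± 0.14), Mrps26 (0.34 ± 0.15) and Mrpl4 (0.38 ± 0.15). Among 76 members, a few can pass this unadjusted cutoff without any difference between the hairpins. The median difference, shOgdh346 minus shOgdh2081, was 0.06.

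Against BFP-negative control cells of day 4, which had the same doxycycline but no induced hairpin, 22 of 76 members fell (28.9%) where 10.3% of all genes fell, 14 of the large and 8 of the small subunit. None rose where 10.5% of all genes did, and there were 0 also at an unadjusted p under 0.05 and by DESeq2. The Ogdh libraries are those of the comparison above. The BFP-negative libraries held 3663014 and 10271698 counts, against 3191961 and 2148243 in BFP-positive control cells of day 4. Thinned to equal depth, the libraries gave 2 calls here and 3 against BFP-positive cells. The median was -0.19. The smallest adjusted p were those of Mrpl40 (log2 fold change -0.44 ± 0.10, adjusted p = 0.000619), Mrpl20 (-0.39 ± 0.09, adjusted p = 0.000806) and Mrpl55 (-0.57 ± 0.13, adjusted p = 0.00105). Mrpl42 (-0.45 ± 0.11, adjusted p = 0.00189) was among the 22, as were the stalk member Mrpl11 (-0.32 ± 0.10, adjusted p = 0.0173), the tunnel exit member Mrpl39 (-0.26 ± 0.09, adjusted p = 0.038) and Mrps18a (-0.27 ± 0.10, adjusted p = 0.0345). These last 3 were not called under 6, 10 and 8 of 16 alternative settings, and Mrps18a changed sign with libraries thinned. On the other hand, Mrpl41 (-0.26 ± 0.12, adjusted p = 0.137), Mrps18c (-0.24 ± 0.12, adjusted p = 0.147) and Mrps25 (-0.26 ± 0.11, adjusted p = 0.0725) did not pass. For 40 members the Ogdh libraries all lay below both BFP-negative libraries (18.9% of all genes), and for 0 above them (16.6%). For 30 members, 16 large and 14 small, they lay below all 4 control libraries of day 4 (13.3% of all genes), and for 0 members above them (11.2%). The number called was 14 and 11 without BFP-negative replicate 1 and 2, 9 when shOgdh346 replicate 1 was left out and 11 when shOgdh2081 replicate 2 was. It was 2 by DESeq2 and with libraries thinned, and 14 without the shallow libraries. The mast cell marker sums of these BFP-negative cells were 42.9 and 48.7 CPM, below those of the Ogdh libraries. In this contrast Ms4a2 (1.35 ± 0.10) and Cpa3 (1.83 ± 0.41, adjusted p = 0.000181) rose by edgeR. Hbb-bt (0.23 ± 0.12, adjusted p = 0.172) and Klf1 (-0.10 ± 0.07) did not pass here. The part of these cells in the member values was not tested.

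Across the 7 groups, the lowest mean of a member was in an Ogdh group for 68 of 76 members (89.5%), against 36.4% of all genes, with 47 of them in shOgdh2081 and 21 in shOgdh346. The highest mean was at day 2 for 53 members (69.7%), against 33.3% of all genes, of which 37 were in BFP-positive cells. For 19 members it was at day 0. The order of the groups was thus day 2 and day 0, then both day 4 controls, then the Ogdh groups. At day 0 the mast cell markers summed to 18.0 and 20.6 CPM, below every other library, and their part in the member values was not tested. Neighbours in this order could lie within their spread: the summed large subunit level of BFP-positive control cells at day 4 was 3241 ± 163 CPM (SD, n = 2) and that of BFP-negative cells 3249 ± 29.7.

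**Figure D4:**
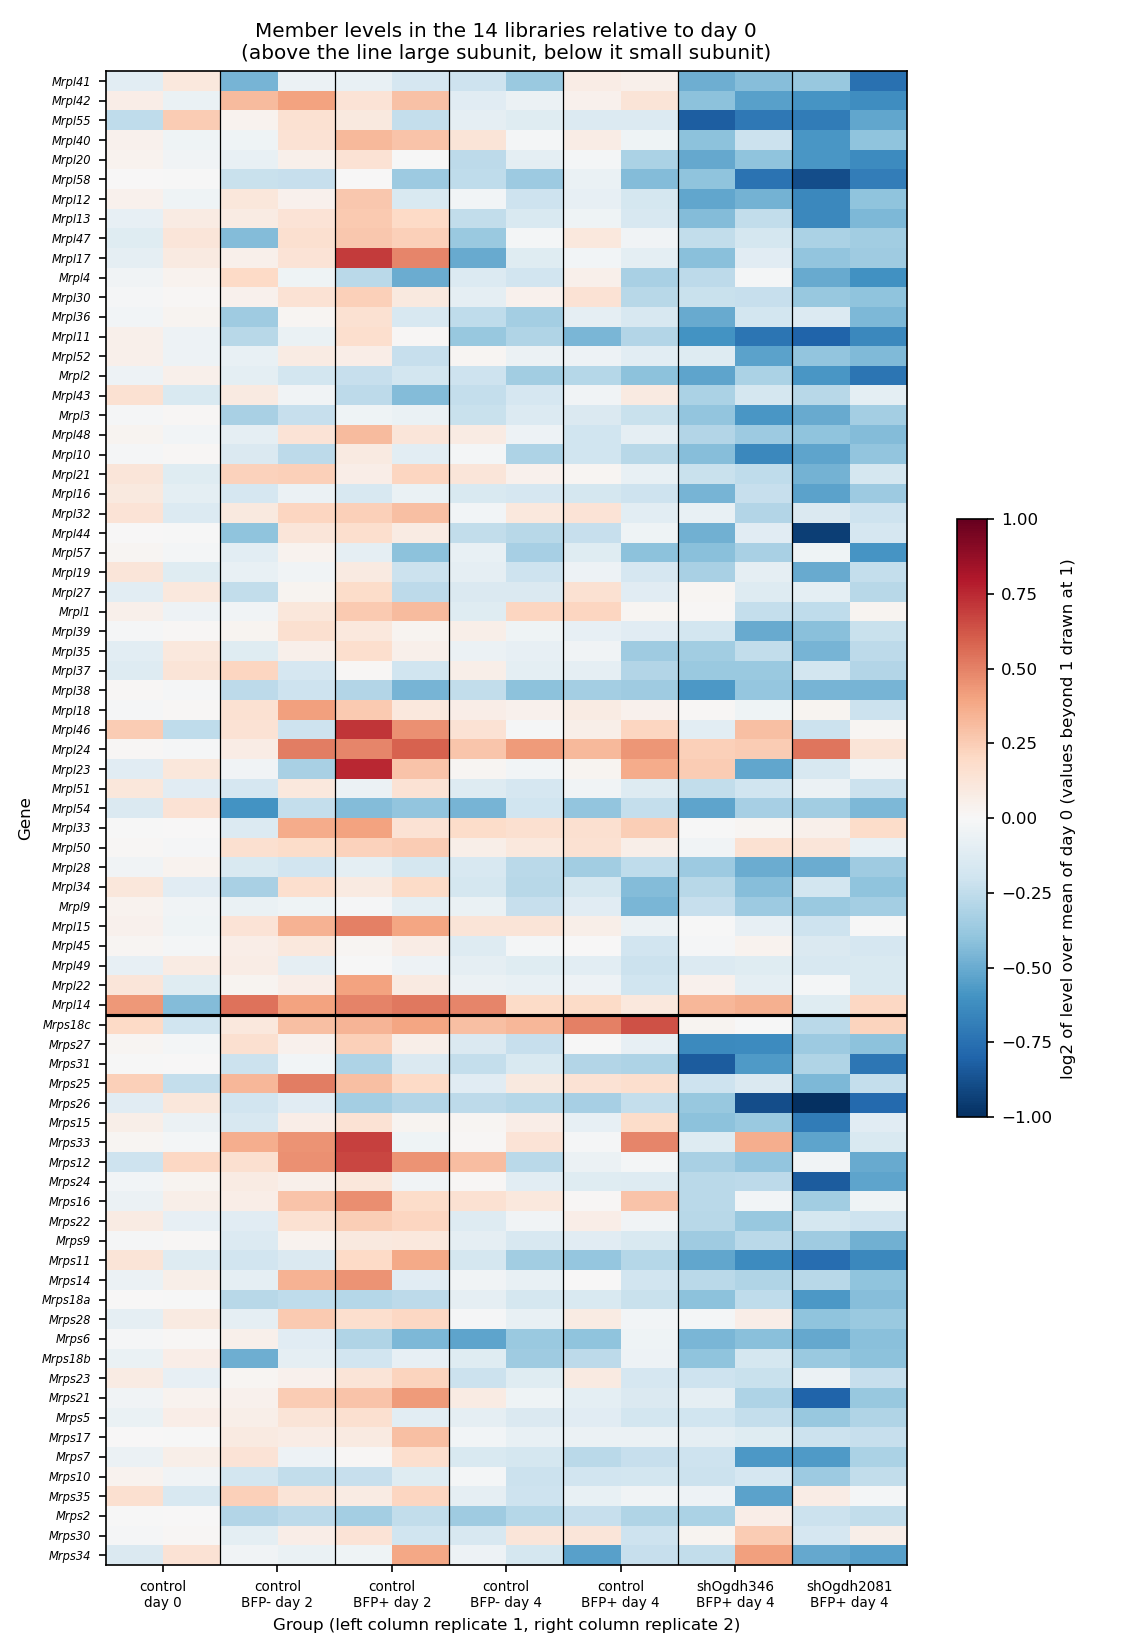
Log2 of each tested member's level over its mean at day 0, in all 14 libraries (columns, 2 per group) and for 76 members (rows, large subunit above the line and small below, ordered by their change with knockdown). Red is higher and blue lower than day 0; the columns of the Ogdh hairpins are mostly blue and those of BFP-positive control cells at day 2 mostly red.

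In control cells, few members changed with induction of the control hairpin, as was so for all tested genes. At day 2, 2 of 76 members rose in BFP-positive against BFP-negative cells where 3% of all genes rose, and none fell where 3.22% of all genes did (2 at an unadjusted p under 0.05, 0 by DESeq2). They were Mrpl46, a protein of the large subunit, and Mrpl17, a bacterial-type protein of the tunnel exit. Mrpl46 measured 25.3 and 19.8 CPM in BFP-negative and 37.5 and 31.3 CPM in BFP-positive cells (log2 fold change 0.69 ± 0.19, adjusted p = 0.0131). It had 27.3 and 19.1 CPM at day 0, 25.2 and 22.7 CPM in BFP-negative and 23.8 and 26.6 CPM in BFP-positive control cells at day 4, 21.3 and 28.2 CPM for shOgdh346 and 19.7 and 23.2 CPM for shOgdh2081. Mrpl17 measured 40.3 and 42.7 CPM in BFP-negative and 63.0 and 54.5 CPM in BFP-positive cells (log2 fold change 0.52 ± 0.14, adjusted p = 0.0166). Its other values were 36.5 and 41.4 CPM at day 0, 27.4 and 35.8 and then 38.2 and 36.4 CPM in BFP-negative and BFP-positive control cells at day 4, 29.2 and 35.9 CPM for shOgdh346 and 29.6 and 30.5 CPM for shOgdh2081. Both genes were highest in the BFP-positive libraries of day 2. Of the exon bases of Mrpl46, 12.2% are shared with Mrps11 on the opposite strand. The count was 1 without BFP-negative replicate 1 and 0 without BFP-positive replicate 1, and DESeq2 called 0. Without BFP-negative replicate 2 neither Mrpl46 nor Mrpl17 was called, and the 2 calls were other members, Mrpl47 higher and Mrpl4 lower.

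At day 4, 0 of 76 members differed between BFP-positive and BFP-negative control cells by edgeR or DESeq2, against 0.0741% of all genes by edgeR, and 1 was higher at an unadjusted p under 0.05. The median was -0.00. The change of the induction effect from day 2 to day 4 was tested for each member, and none passed (smallest adjusted p = 0.187, for Mrpl43).

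Against day 0, BFP-negative cells of day 2 had 2 higher members where 5.33% of all genes rose and none lower where 4.98% fell (5 at an unadjusted p under 0.05, 0 by DESeq2). Mrps25 rose (log2 fold change 0.42 ± 0.13, adjusted p = 0.0314), as did Mrpl18, a bacterial-type protein (0.31 ± 0.10, adjusted p = 0.0429). Mrpl18 measured 97.9 and 99.989 CPM at day 0, 110.0 and 132 CPM in BFP-negative and 119 and 106 CPM in BFP-positive cells at day 2, 104 and 102 CPM and 105 and 102 CPM in the same populations at day 4, 99.8 and 95.8 CPM for shOgdh346 and 101 and 85.4 CPM for shOgdh2081. BFP-negative replicate 2 of day 2 held its highest value, and the 2 libraries of day 0 lay among those of the Ogdh hairpins. Without day 0 replicate 1 the call for Mrpl18 was lost and Mrpl14 was called in its place. The count was 0 without day 0 replicate 2, 4 without BFP-negative replicate 1 and 0 without BFP-negative replicate 2.

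BFP-positive cells of day 2 had 5 higher members where 9.1% of all genes rose, and 1 lower where 8.77% fell. Mrpl15, a bacterial-type protein, had the smallest adjusted p (log2 fold change 0.46 ± 0.10, adjusted p = 0.000723). It measured 114 and 107 CPM at day 0, 122 and 140.4 CPM and 157 and 145 CPM in BFP-negative and BFP-positive cells at day 2, 121 and 121 CPM and 115 and 106 CPM in these at day 4, 110.2 and 104 CPM for shOgdh346 and 95.4 and 109.8 CPM for shOgdh2081. Its day 2 BFP-positive libraries were the highest of all. Mrpl17 (0.62 ± 0.15, adjusted p = 0.00206), Mrpl24 (0.53 ± 0.14, adjusted p = 0.0038), Mrpl46 (0.59 ± 0.19, adjusted p = 0.0226) and Mrps16 (0.36 ± 0.13, adjusted p = 0.0417) also rose. Mrpl38, a mitochondria-specific protein, fell (log2 fold change -0.36 ± 0.11, adjusted p = 0.0201). Its values were 108 and 106 CPM at day 0, 89.5 and 93.0 CPM and 87.4 and 77.7 CPM in BFP-negative and BFP-positive cells at day 2, 90.3 and 80.9 CPM and 84.6 and 83.9 CPM at day 4, 72.0 and 82.2 CPM for shOgdh346 and 77.9 and 77.9 CPM for shOgdh2081. Day 0 was above every later library. The median of all members was 0.11, and the number called was 1 without BFP-positive replicate 1 and 2 by DESeq2.

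At day 4, 1 member rose and 1 fell against day 0 in each population. In BFP-negative cells 3.84% of all genes rose and 4.19% fell, and in BFP-positive cells 3.46% rose and 3.65% fell. Mrpl38 fell in BFP-negative (log2 fold change -0.34 ± 0.10, adjusted p = 0.0185) and in BFP-positive cells (-0.35 ± 0.11, adjusted p = 0.0364), with the day 0 libraries shared by both comparisons. Mrpl24 rose in BFP-negative cells (log2 fold change 0.37 ± 0.12, adjusted p = 0.0412) and Mrps18c in BFP-positive cells (log2 fold change 0.54 ± 0.16, adjusted p = 0.0275). Medians were -0.14 and -0.10, with 59 and 53 of 76 members below 0, where 47.9% and 47.7% of all genes were. In BFP-negative cells both calls were lost without day 0 replicate 1, where Mrpl14 alone was called, higher, and the count was 0 without day 0 replicate 2 or BFP-negative replicate 2. In BFP-positive cells Mrps18c alone was called without day 0 replicate 1, and the count was 0 without day 0 replicate 2 or either BFP-positive library.

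Other genes of mitochondrial protein synthesis were compared in the same knockdown contrast. Among all tested genes 8.36% were lower and 7.72% higher. Of 14 tested translation factors 4 fell and 10 did not pass (median -0.24, 3 lower by DESeq2). Gfm1, the elongation factor that moves the ribosome along, measured 189 and 166 CPM in BFP-positive control cells at day 4, 134 and 101 CPM for shOgdh346 and 138 and 137 CPM for shOgdh2081 (-0.45 ± 0.09, adjusted p = 9.4e-05). C1qbp, which binds the mitochondrial ribosome and its mRNAs, measured 361 and 350.2 CPM in BFP-positive control cells at day 4, 279 and 271 CPM for shOgdh346 and 258 and 276 CPM for shOgdh2081 (-0.38 ± 0.07, adjusted p = 5.3e-05). Tufm (-0.35 ± 0.11), the factor that delivers tRNA, and Lrpprc (-0.28 ± 0.08), which stabilizes mitochondrial mRNA, also fell. Of 29 genes of ribosome assembly and ribosomal RNA modification 4 fell, Mtg1 (-0.65 ± 0.22), Ybey (-0.59 ± 0.18), Rcc1l (-0.35 ± 0.12) and Rbfa (-0.33 ± 0.10), and 25 did not pass (median -0.01, 0 lower by DESeq2). A further list held 6 tested genes, mitochondrial ribosomal proteins with other names and the membrane insertase gene Oxa1l, and 0 passed by edgeR, by DESeq2 or at an unadjusted p under 0.05 (median -0.04).

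Of 20 genes of mitochondrial tRNA charging, which are aminoacyl-tRNA synthetases and subunits of the glutamyl-tRNA amidotransferase, Yars2 fell (-0.34 ± 0.12) and Lars2 rose (0.43 ± 0.14), with a median of -0.05. Lars2 measured 117 and 104 CPM in BFP-positive control cells at day 4, 98.7 and 154.9 CPM for shOgdh346 and 236 and 181 CPM for shOgdh2081, and 239.9 and 248.8 CPM at day 0, so that the libraries of day 0 were highest and those of shOgdh346 and of the control overlapped. Of 12 genes of mitochondrial DNA maintenance and transcription, Top1mt (-0.63 ± 0.22), Tfam (-0.28 ± 0.09) and Ssbp1 (-0.31 ± 0.10) fell (median -0.08). DESeq2 called 0 in these last 2 lists. Of 9 tested transcription factors and co-activators that act on genes of mitochondrial proteins, 0 passed by edgeR or DESeq2 and 1 was higher at an unadjusted p under 0.05, with Gabpa at -0.17 ± 0.10, Nrf1 at -0.10 ± 0.11, Yy1 at 0.09 ± 0.08 and Myc at 0.06 ± 0.07.

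The list with the median nearest to that of the members was that of nuclear respiratory chain and ATP synthase subunits, of which 29 of 74 fell and 45 did not pass (median -0.21, 69 below 0, 11 lower by DESeq2). The 6 with the smallest adjusted p were Atp5j (-0.47 ± 0.08), Atp5k (-0.52 ± 0.10), Cox7b (-0.38 ± 0.08), Ndufa3 (-0.49 ± 0.11), Cox6c (-0.34 ± 0.08) and Cox5a (-0.48 ± 0.11). Its median equalled that of the mitochondrial ribosomal proteins at 2 decimals. Cytosolic ribosomal proteins, the counterparts that serve the rest of the cell, had 7 higher and 2 lower of 77 (median 0.04, 26 below 0, with 3 higher and 1 lower by DESeq2), with Rpl3 (0.27 ± 0.06) among those higher and Rps27l (-0.53 ± 0.09), a paralogue of Rps27, lower. Many cytosolic ribosomal protein genes have near-identical pseudogene copies, so that their counts are uncertain. These lists were chosen with earlier results known, and no difference between lists was tested.

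**Figure D5:**
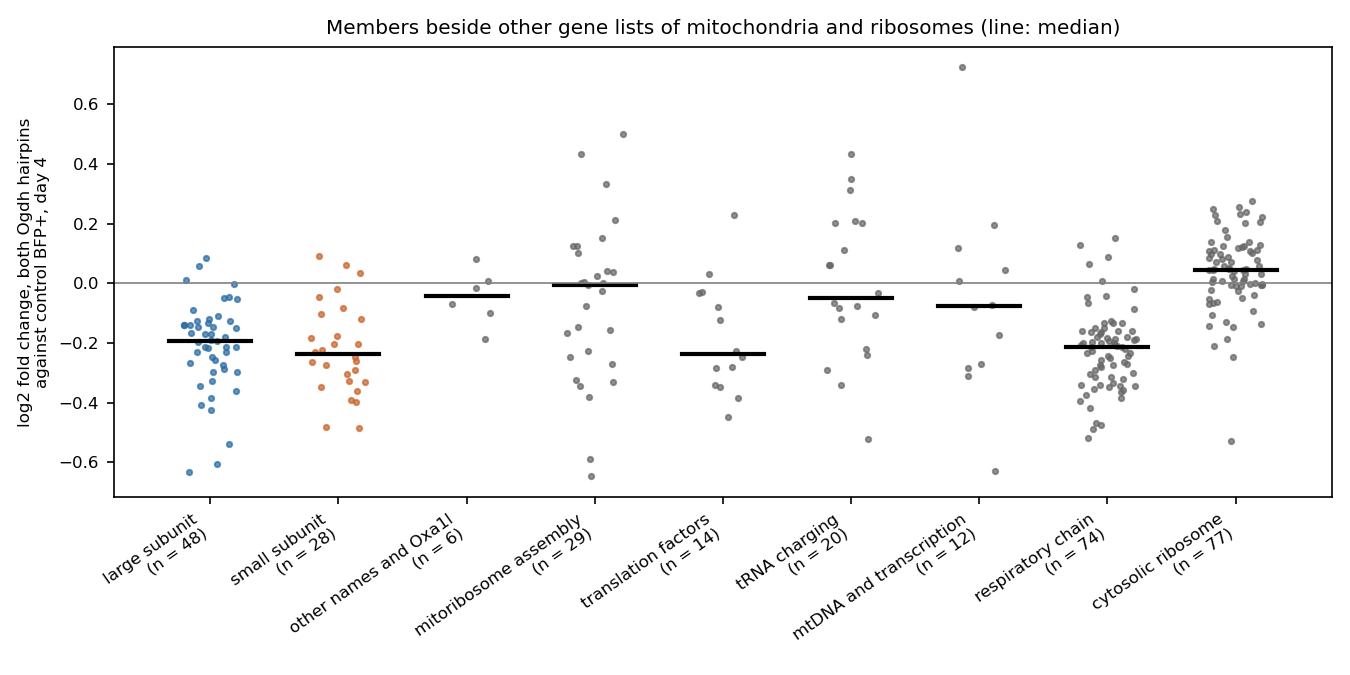
Log2 fold change for both Ogdh hairpins against BFP-positive control cells at day 4, each point 1 tested gene and the line the median, for the large and small subunit members and 7 other lists of mitochondrial or ribosomal genes. Medians of the members, of the translation factors and of the respiratory chain lie near -0.2, and those of the other lists between -0.08 and 0.04.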

How the data were processed

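Polyadenylated RNA of 14 libraries was sequenced as single-end reads, per the labels' protocols. The authors deposited 1 table of raw whole-number counts per gene with a transcript length for each gene. The submitters' processing notes name FastQC 0.11.5, Trimmomatic 0.36, STAR 2.6.1a and featureCounts 1.6.3 with the mouse build GRCm38, whereas the labels' protocols name HTSeq, a human build and RPKM. The table holds mouse genes and counts. The sources used here do not state the settings for strand and multi-mapping reads.

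Gene positions came from GENCODE M21 (GRCm38), in which all 77 members were found, 71 with the same coordinates. The deposited length equalled the union of exons for 51014 of 53360 genes compared. Levels are CPM after TMM scaling, and levels of markers are CPM of the whole library. Genes were filtered by filterByExpr, and 10791 were tested with edgeR 4.0.16 (quasi-likelihood, R 4.3.3), all 14 libraries in 1 fit with group as its term, 2-sided, with Benjamini-Hochberg adjustment over all tested genes and a call at an adjusted p under 0.05. The error given with a log2 fold change is its standard error. Alternatives were DESeq2 1.42.0, its size factors in edgeR, filters, a replicate block by title or library number, a length offset, thinning to the smallest library and leaving out each library. The edgeR fit was tested on simulated data with known changes. There all genes had the same spread, so it cannot show how calls hold for these replicates. The depth of a library sets its counting error, and the biological coefficient of variation was 5.04% over all groups.

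Values in every library are given for the 6 large and up to 6 small subunit members with the smallest adjusted p among those called for both hairpins, up to 3 a direction in each other comparison, the 3 highest and 3 lowest per length, and members chosen for their roles. Up to 6 called genes of each other list could be named. Members and lists were chosen with earlier results of these data known. A marker gene and the sums that include it are not reported here.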

Additional observations from a re-analysis of the deposited data

How the results depend on the processing

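Counts of members called depended on depth, tool and single libraries more than their direction did. For both hairpins against BFP-positive control cells the 13 calls became 3 with libraries thinned to equal depth and 4 with DESeq2, and 1 to 11 when 1 library was left out. For shOgdh346 the 8 calls became 1 with thinning, 0 with DESeq2, 5 without the shallow library of each hairpin (chosen after seeing the data) and 0 to 7 with 1 library left out. For shOgdh2081 the 12 calls became 7 with the replicate block and length offset together, 2 with thinning, 3 with DESeq2, 5 without the shallow libraries and 1 to 8 with 1 library left out. Against BFP-negative cells the 22 calls became 2 with thinning, 2 with DESeq2, 14 without the shallow libraries and 9 to 21 with 1 library left out. For induction at day 2 the 2 calls became 1 with thinning, 0 with DESeq2 and 0 to 2 with 1 library left out. Against day 0, the 2 calls of BFP-negative cells at day 2 became 0 without a filter on low counts, 1 with thinning, 0 with DESeq2 and 0 to 4 with 1 library left out. The 6 of BFP-positive cells at day 2 became 10 with block and length offset, 2 with DESeq2 and 1 to 6 with 1 library left out. At day 4 the 2 of BFP-negative cells became 0 without the filter, 4 with block and length offset, 1 with a block by library number, 0 with thinning, 0 with DESeq2 and 0 to 3 with 1 library left out, and the 2 of BFP-positive cells became 0 without the filter, 4 with block and length offset, 0 with thinning, 0 with DESeq2 and 0 to 1 with 1 library left out. The counts of 0 between hairpins and for induction at day 4 were 0 under each alternative run. Thinning and leaving out a library test fewer counts or samples, and for the other settings the cause was not tested. Mrps18a against BFP-negative cells changed sign with thinning (0.084, adjusted p = 0.857). The median log2 fold change for both hairpins stayed below 0, from -0.24 to -0.15 for the large and from -0.25 to -0.18 for the small subunit. Over all tested genes 1735 were called (833 higher, 902 lower), against 689 (393 and 296) with thinning, 700 with DESeq2 and 461 (263 and 198) without BFP-positive control replicate 1. Deviations of same-numbered replicates correlated at -0.08 to 0.15 over 21 pairs of groups. Counting error lowers such correlations, so low values cannot exclude that the numbers pair the samples. The main fit did not pair them. The replicate block alone gave 14 calls for both hairpins, 8 for shOgdh346, 13 for shOgdh2081, 0 between hairpins, 25 against BFP-negative cells, 3 and 0 for induction at days 2 and 4, 2 and 6 at day 2 against day 0, and 3 and 3 at day 4 against day 0. The descriptions also number the libraries, in the opposite order to the titles for shOgdh346, and do not say that these numbers mark a batch. A replicate block by library number (chosen after seeing the data) gave 12 calls for both hairpins, 6 for shOgdh346 and 12 for shOgdh2081, with correlations again from -0.08 to 0.15. The depth of 913482 counts in the shallowest library, with as few as 5 counts for a member, limits what low members can show.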
